A study of Bos taurus with 20 samples.

Results

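The 9 genes described here were higher in adipogenic (A) than in non-adipogenic (N) clones of bovine mesenchymal stem cells (MSC), with little or no overlap between both clone types, and none of them is a textbook gene of fat cell development. They are CRTAC1, KCTD12, HOMER2, PPP4R4, ELL2, C19H17orf58, LOC281376, VSTM2L and GLDN. They were taken by symbol from the 33063 named genes of the count table, and they were picked because of their measured levels in these same clones. Their difference between A and N clones is therefore given as a description, and no test of it is read. All 9 passed the filter on low counts that kept 12900 genes for the comparison of A and N clones.

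RNA was sequenced from 10 A and 10 N clones of 4 Holstein Friesian x Aberdeen Angus calves, with 1 library per clone. The text of the paper gives the ages of the calves as a range and the fat as inguinal or perirenal, not per animal. Animals 17 and 20 gave 1 clone of each type, and animals 22 and 23 gave 4 of each. Every clone was the progeny of 1 sorted MSC from visceral fat and was grown with fetal bovine serum and basic fibroblast growth factor. None carried an engineered allele, and none had been differentiated when its RNA was taken. A and N refer to what sister cells of the clone did in a differentiation test. A clones made fat cells in both of 2 consecutive tests and were chosen for the highest yield of fat cells, whereas N clones made none in the first. Each group thus rests on 4 animals, with 8 of its 10 clones from animals 22 and 23. Clones are named here by condition, animal and clone number, as in N 22-18.

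MSC from fat contain progenitors that differ in how readily they become fat cells, and a clone keeps part of the character of the cell it grew from. The 9 genes are known from other settings. CRTAC1 (cartilage acidic protein 1) is a secreted matrix protein of cartilage that also blocks the Nogo receptor in the brain. GLDN (gliomedin) is a collagen-like protein with an olfactomedin domain that Schwann cells place at the nodes of myelinated axons. VSTM2L is a secreted protein of the immunoglobulin type that binds the peptide humanin. LOC281376 carries the synonym PAI2 in RefSeq, the name of plasminogen activator inhibitor 2, a serpin that blocks urokinase. KCTD12 is an auxiliary subunit of GABA-B receptors, and HOMER2 is a scaffold protein that ties glutamate and inositol trisphosphate receptors together. PPP4R4 is a regulatory subunit of protein phosphatase 4. ELL2 is an elongation factor of RNA polymerase II, known for antibody production in plasma cells. C19H17orf58 is an open reading frame with little functional annotation.

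The libraries of A clones held 14615493 to 29185355 counts on named genes (median 16112862), and those of N clones 14908802 to 43111345 (median 16316703.5). The largest library was N 22-18, and the next largest N library held 23425994 counts. The N clone 22-18 returns below, since it was the highest N clone for 6 of the 9 genes. The MSC markers PDGFRA, PDGFRB, THY1, ENG, NT5E, ITGB1 and CD44 were all tested, and none was called different between A and N clones (edgeR's quasi-likelihood test). Their summed level was 3808 to 6290 CPM in A and 2788 to 5583 CPM in N clones. ITGB1 was the largest part of it, at a mean of 2584 CPM in A and 2201 CPM in N clones. Single markers were uneven. The lowest N clone was at 0.395 CPM for THY1, 0.508 CPM for NT5E and 19.1 CPM for ENG. The lowest A clone was at 18.0, 65.2 and 242 CPM for them. For PDGFRA the lowest A clone, at 36.2 CPM, lay below the lowest N clone, at 84.5 CPM. CPM stands for counts scaled to a common library size, corrected by the TMM factor of each library.

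Of the genes for secreted proteins, CRTAC1 separated the clone types fully. Its level in A clones was 10.4 CPM at the lowest, 45.1 CPM at the median and 334 CPM at the highest. The N clones lay between 1.65 and 8.39 CPM, with a median of 4.80 CPM. Every A clone lay above every N clone, but the gap was narrow, with the lowest A clone (23-62) 1.24-fold above the highest N clone (17-23). The mean was 81.1 ± 94.2 CPM in A and 5.10 ± 2.90 CPM in N clones (SD, n = 10 each), and the fitted log2 fold change was 3.71 (SE 0.345). The high mean in A clones owed much to clones 20-106, at 334 CPM, and 17-57, at 121 CPM, since the other A clones reached 88.2 CPM at most. In RNA from a whole clone, more cells that express a gene and more RNA per expressing cell cannot be told apart.

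GLDN had the widest range of all 9 genes among A clones, 124-fold from the lowest to the highest. It had 51 counts in the lowest A clone (20-106) and was at 41.4 CPM at the median and 309 CPM in A 22-11. In N clones it was close to absent. No read was counted in 6 of the 10 N clones, 3 more had 1 to 3 counts, and N 22-18 had 104 counts, or 2.65 CPM. This put N 22-18 above the lowest A clone, so that 9 of 10 A clones lay above all N clones. The means were 88.4 ± 106 CPM in A and 0.290 ± 0.830 CPM in N clones (SD, n = 10 each), and the fitted log2 fold change was 8.23 (SE 0.855). Without N 22-18 the mean of the N clones was 0.0278 CPM, the highest was 0.134 CPM, and all 10 A clones lay above them. The fitted log2 fold change was then 11.01, a value that rests on 5 counts in 9 N libraries.

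VSTM2L showed the same kind of overlap from the other side. Its level in A clones was 0.545 CPM at the lowest, 13.0 CPM at the median and 40.0 CPM at the highest, in A 23-14. The lowest was A 17-57, with 8 counts, and it alone fell within the range of the N clones. The N clones lay between 0 and 0.865 CPM, with a median of 0.0616 CPM, and N 22-18 and N 22-17 were the 2 highest. The means were 14.7 ± 12.3 CPM in A and 0.182 ± 0.279 CPM in N clones (SD, n = 10 each), with a log2 fold change of 6.32 (SE 0.683). When N 22-18 was left out, every A clone lay above every remaining N clone, the highest of which was at 0.493 CPM, and the log2 fold change was 6.91.

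LOC281376, the serpin, had the widest gap of the 9 genes. A clones lay between 11.3 and 636 CPM, with a median of 149 CPM, and N clones between 0 and 5.01 CPM, with a median of 0.759 CPM. The lowest A clone (22-121) was 2.26-fold above the highest N clone (22-18). The mean was 193 ± 184 CPM in A and 1.68 ± 1.79 CPM in N clones (SD, n = 10 each), and the log2 fold change was 6.72 (SE 0.809), or 7.35 without N 22-18. The difference of mean log2 CPM between A and N clones was 5.15 at the least, in animal 20, and 8.13 at the most, in animal 23, with 6.23 and 6.14 in animals 17 and 22. A clones differed 56.2-fold among themselves, and A 23-14, at the top, held 9712 counts.

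RefSeq gives the synonym PAI2 to 2 bovine genes on chromosome 24, LOC281376 and SERPINB2, which can share reads if their sequences are near-identical. SERPINB2 did not pass the filter on low counts. It had 0 counts in 9 of the 10 N clones and 5 in the remaining one, N 20-15, and between 2 and 2062 counts in A clones. In A clones the SERPINB2 count was a median of 1.62% of the LOC281376 count, with a range from 0.0392% in A 23-108 to 50.0% in A 20-106. The proportion thus was not fixed, being above 20% in A 20-106, 22-121, 23-62 and 23-14 and below 2% in the other 6 A clones. Only uniquely mapped reads were counted, and how reads were split between both genes was not tested.

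**Figure D1:**
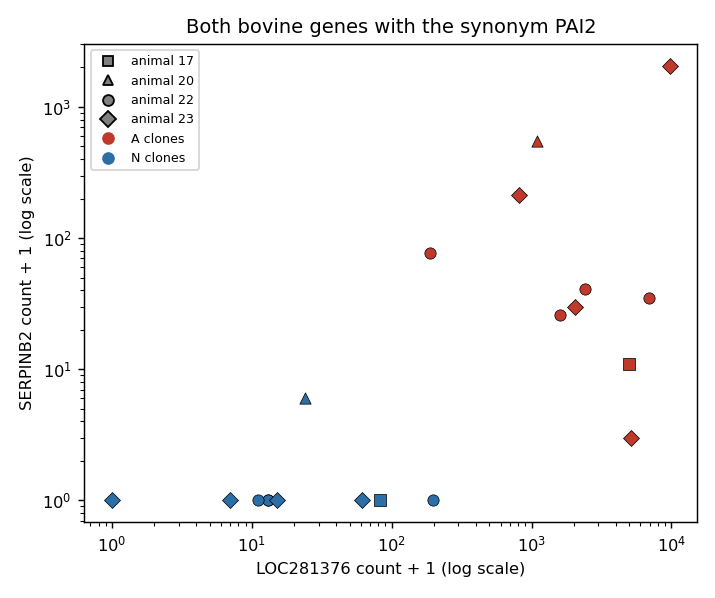
Counts of SERPINB2 (y axis) against LOC281376 (x axis) in each of the 20 clones, both plus 1 on log scales, with colour for the condition and marker shape for the animal. A clones have at least 186 LOC281376 counts, with SERPINB2 from 2 to 2062 counts, whereas SERPINB2 is at 0 in 9 of 10 N clones.

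The 2 signalling scaffolds, KCTD12 and HOMER2, both separated the clone types fully. KCTD12 was at 3.92 CPM in the lowest A clone, 33.4 CPM at the median and 78.3 CPM in the highest, against 0.180, 1.25 and 3.30 CPM in N clones. Its means were 35.0 ± 24.8 CPM in A and 1.49 ± 1.10 CPM in N clones (SD, n = 10 each), and its log2 fold change was 4.48 (SE 0.535). The A clones of animals 17 and 20 were the lowest of the 10, at 7.49 and 3.92 CPM, while those of animals 22 and 23 lay between 17.6 and 78.3 CPM. The difference of mean log2 CPM between A and N clones was accordingly 0.96 in animal 20 and 2.49 in animal 17, but 4.55 in animal 22 and 5.63 in animal 23.

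HOMER2 was a low-level gene in both clone types. A clones lay between 1.03 and 6.88 CPM (21 to 101 counts), with a median of 3.10 CPM. Among N clones, 4 had no count, 5 had 1 to 3 counts, and N 22-18 had 29 counts, or 0.738 CPM. The means were 3.32 ± 1.84 CPM in A and 0.129 ± 0.224 CPM in N clones (SD, n = 10 each), with a log2 fold change of 4.59 (SE 0.644). Without N 22-18 the mean of the N clones was 0.0615 CPM and the log2 fold change 5.57. A clones varied less in HOMER2 than in KCTD12, 6.71-fold against 20.0-fold from the lowest to the highest clone.

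PPP4R4 and ELL2 act on enzymes, a phosphatase and RNA polymerase, and both separated the clone types fully. PPP4R4 was at 1.28, 6.48 and 18.2 CPM in the lowest, median and highest A clone, and at 0, 0.532 and 1.12 CPM in N clones. The means were 7.98 ± 6.26 CPM in A and 0.507 ± 0.335 CPM in N clones (SD, n = 10 each), and the log2 fold change was 4.03 (SE 0.595). A 23-108 and A 22-121, at 1.28 and 1.40 CPM, lay just above N 22-18, whereas A 22-11 and A 22-16 exceeded 17 CPM.

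ELL2 had the smallest difference of the 9 genes and also the smallest spread. It was at 94.9, 123 and 210 CPM in the lowest, median and highest A clone and at 35.2, 56.6 and 84.0 CPM in N clones. The means were 138 ± 41.6 CPM and 56.1 ± 18.0 CPM (SD, n = 10 each), and the log2 fold change was 1.33 (SE 0.157). All A clones exceeded all N clones with a gap of 1.13-fold, between A 23-108 and N 22-18. The A clones differed 2.22-fold among themselves. The difference of mean log2 CPM was 0.70, 1.51, 1.16 and 1.56 in animals 17, 20, 22 and 23.

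C19H17orf58 was almost as even as ELL2. A clones lay between 7.54 and 20.7 CPM, with a median of 14.3 CPM, and N clones between 2.21 and 7.86 CPM, with a median of 2.89 CPM. One N clone, 20-15 at 7.86 CPM, lay above the lowest A clone, 23-62 at 7.54 CPM, and leaving out N 22-18 did not remove this overlap. The A clone of the same animal, 20-106, was the highest of all at 20.7 CPM. The means were 14.3 ± 4.04 CPM and 3.65 ± 1.80 CPM (SD, n = 10 each), with a log2 fold change of 2.03 (SE 0.178).

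Thus 6 of the 9 genes separated every A from every N clone, and in the other 3 a single N clone lay above the lowest A clone. Over all genes tested, 29 of 12900 (0.225%) separated the clones in this way with A above N. At an adjusted p under 0.05, 10.3% of all genes tested were called higher and 10.3% lower in A clones. Nothing is read from either share for the 9 genes, as they were chosen on this contrast. In all 4 animals each of the 9 was higher in A than in N clones, a direction that the same choice favours.

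**Figure D2:**
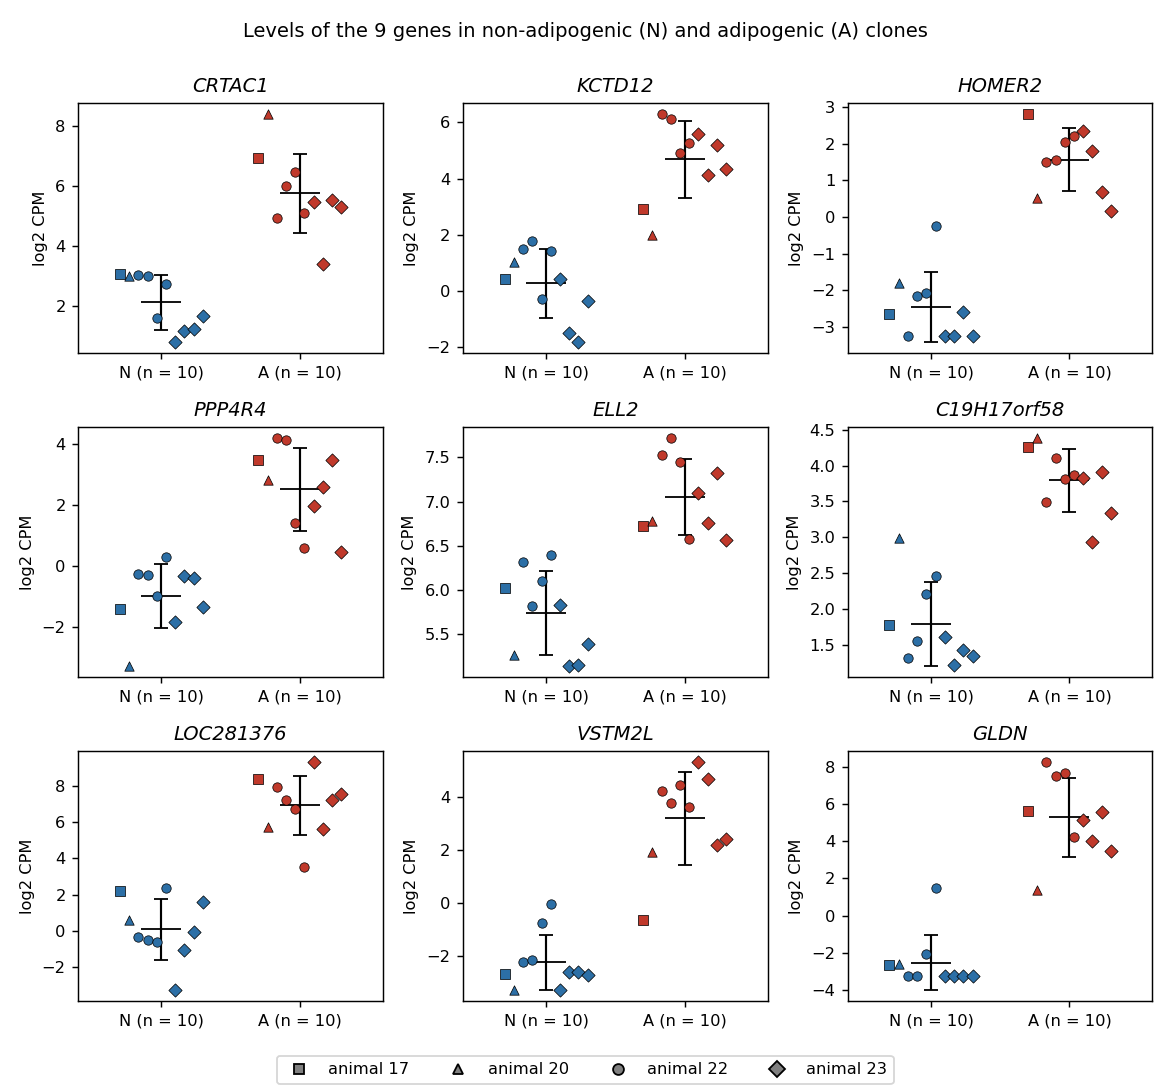
Level of each of the 9 genes in log2 CPM (prior count 2, y axis, its range set for each gene) in the 10 N clones (blue) and the 10 A clones (red), with marker shape for the animal and bars for the mean and SD. CRTAC1, KCTD12, HOMER2, PPP4R4, ELL2 and LOC281376 do not overlap between groups, while 1 N clone reaches the range of the A clones for C19H17orf58, VSTM2L and GLDN.

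The N clone 22-18 was the highest N clone for HOMER2, PPP4R4, ELL2, LOC281376, VSTM2L and GLDN. It was also among the 3 highest N clones for C19H17orf58 and KCTD12, but not for CRTAC1. Over all genes tested it was the highest N clone in 10.8%, and among the 1333 genes called higher in A clones in 29.4%. Its library was also the largest of all. The part of library size in these levels was not tested. In its own group it stood out most for GLDN, at 2.65 CPM against 0.134 CPM in the next N clone.

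The A clones did not order in 1 way across the genes. The highest A clone was 22-11 for KCTD12, PPP4R4 and GLDN, 23-14 for LOC281376 and VSTM2L, 20-106 for CRTAC1 and C19H17orf58, 17-57 for HOMER2 and 22-16 for ELL2. A 20-106 was the lowest A clone for KCTD12 and GLDN and the highest for CRTAC1, and A 17-57 was the highest for HOMER2 and the lowest for VSTM2L. Over the 36 pairs of the 9 genes, the correlation of log2 CPM across the 10 A clones was positive in 27, with a median of 0.122. It ranged from -0.57 for CRTAC1 and KCTD12 to 0.88 for CRTAC1 and C19H17orf58. ELL2 and GLDN (0.81) and KCTD12 and GLDN (0.72) also went together. These values are descriptions of 10 clones that share animals.

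**Figure D3:**
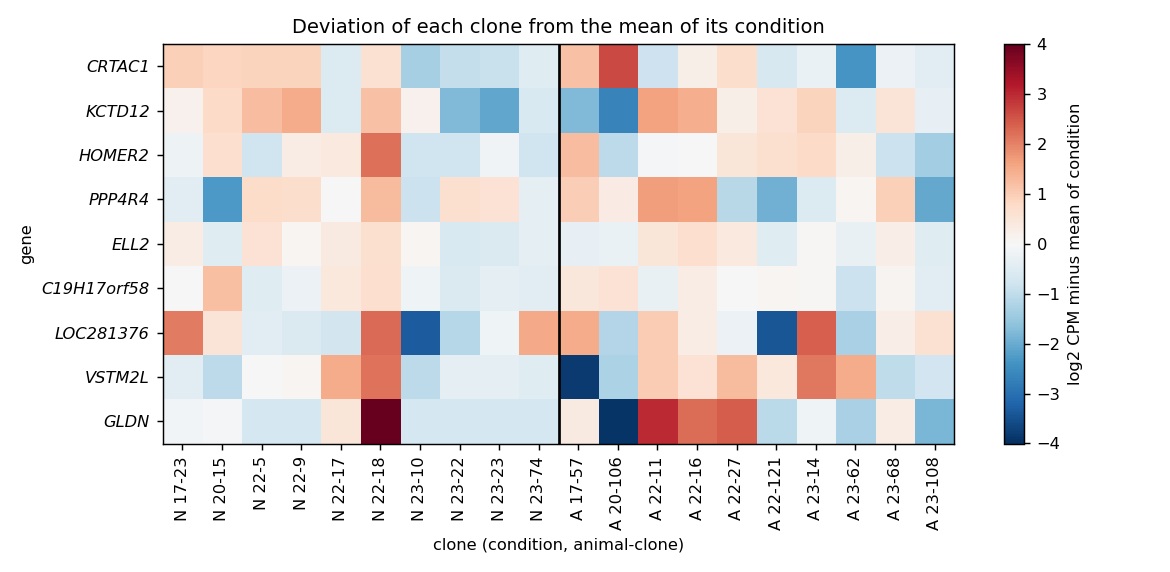
Heat map of the 9 genes (rows) in the 20 clones (columns, N left and A right of the line), coloured by log2 CPM minus the mean log2 CPM of the clone's own condition. N 22-18 is above its group in all 9 genes, and A 20-106 is above its group for CRTAC1 and below it for KCTD12 and GLDN.

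Whether the levels also depended on the animal was asked within each clone type, between the 4 clones of animal 23 and the 4 of animal 22, a contrast that had not chosen the genes. It sets 1 animal against 1 other with clones as replicates. Calf age, fat region and MSC preparation cannot be told apart from the animal here. In A clones, none of the 9 genes was called different (edgeR's quasi-likelihood test, adjusted p under 0.05, 0.00% of 12915 genes called). At an unadjusted p under 0.05, 785 of all genes passed and 1 of the 9, and DESeq2 called 23 genes and none of the 9. The GLDN level of A clones averaged 180 ± 120 CPM in animal 22 but 27.4 ± 17.1 CPM in animal 23 (SD, n = 4 each). The largest values were in A 22-11, 22-27 and 22-16, at 309, 209 and 184 CPM, while A 22-121 was at 18.7 CPM, within the range of animal 23. GLDN's log2 fold change between animals was -2.72 (SE 1.04, adjusted p = 0.765 by edgeR's quasi-likelihood test). For 7 of the 9 genes the estimate in A clones was below 0, LOC281376 (0.99) and VSTM2L (0.17) being the exceptions. LOC281376 lay at 129 ± 98.8 CPM in animal 22 and 255 ± 260 CPM in animal 23 (SD, n = 4 each), and the clones of both animals overlapped.

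In N clones, the estimates of all 9 genes were lower in animal 23 than in animal 22, with a median of -1.47 on the log2 scale against -0.02 over all genes tested. None of the 9 was called by edgeR's quasi-likelihood test, which called 1.12% of 12915 genes. By the same test 15.5% of all genes had an unadjusted p under 0.05, and 6 of the 9, namely CRTAC1, KCTD12, ELL2, HOMER2, VSTM2L and GLDN. DESeq2 called 5.77% of genes and 4 of the 9, namely CRTAC1, KCTD12, HOMER2 and GLDN. HOMER2, VSTM2L and GLDN had 0 to 3 counts in 9, 8 and 9 of the 10 N clones and passed the filter mainly through A clones. Nothing is read from their part in these counts or in the median. The estimates of the other genes went from -1.96 for KCTD12 to -0.58 for C19H17orf58. Among these, KCTD12, PPP4R4 and LOC281376 had as few as 3, 0 and 0 counts in an N clone. They too passed the filter only with the A clones. Nothing is read from their part in the numbers of genes called or in the median either. The CRTAC1 level of N clones averaged 6.38 ± 2.42 CPM in animal 22 but 2.29 ± 0.584 CPM in animal 23 (SD, n = 4 each). The log2 difference of CRTAC1 was -1.47 (SE 0.481, adjusted p = 0.152 by edgeR's quasi-likelihood test). KCTD12 was at 2.33 ± 1.12 against 0.588 ± 0.487 CPM, a log2 difference of -1.96 (SE 0.603, adjusted p = 0.131 by edgeR's quasi-likelihood test). ELL2 was at 72.0 ± 12.4 against 42.4 ± 10.2 CPM, and the N clones of animal 22 and animal 23 overlapped only through N 22-9 and N 23-10, at 56.2 and 57.0 CPM.

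HOMER2, VSTM2L and GLDN were near 0 in the N clones of animal 23, with 1, 3 and 0 counts in the 4 libraries together, so their estimates between animals carried little information. In the N clones of animal 22, GLDN had 104 counts in N 22-18, 3 in N 22-17 and 0 in the others. Without N 22-18, the log2 difference went from -3.78 to -2.15 for HOMER2 and from -3.15 to -2.39 for VSTM2L, and for LOC281376 it turned from -0.77 to 0.83. The other 8 estimates were still below 0.

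**Figure D4:**
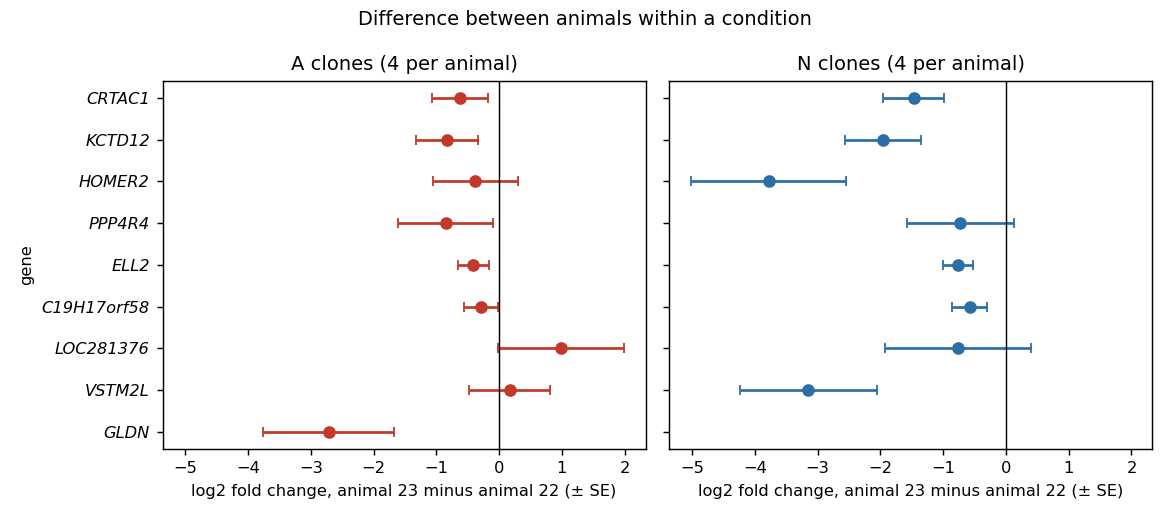
Log2 fold change of animal 23 against animal 22 (x axis, point and SE) for the 9 genes (y axis) in A clones (left) and N clones (right), with 4 clones per animal and condition. In A clones 7 of 9 points lie below 0, and in N clones all points drawn do, those of HOMER2 and VSTM2L resting on few counts. GLDN is not drawn for N clones because all 4 N clones of animal 23 had 0 counts.

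The difference between A and N clones did not itself differ detectably between animals 22 and 23. None of the 9 genes was called in the test of the interaction (edgeR's quasi-likelihood test, 0.0310% of 12915 genes called, 1170 at an unadjusted p under 0.05), nor by DESeq2, which called 116 genes. HOMER2 (3.41, SE 1.43) and VSTM2L (3.32, SE 1.28) had an unadjusted p under 0.05, with adjusted p = 0.513 and 0.480 by edgeR's quasi-likelihood test, and both had few or no counts in the N clones of animal 23. With 4 clones per animal and type, sizeable differences could have gone unnoticed: for ELL2, the most even gene, the SE of the interaction was 0.341 on the log2 scale.

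The known partners of these genes were examined next, as 7 lists of 95 genes in all. Of these, 62 could be tested, 10 were higher (16.1%) and 6 lower (9.68%) in A clones, near the 10.3% called in each direction over all genes. The median log2 fold change of the lists was -0.01, as it was over all genes tested. The lists were drawn up with earlier results of these data known.

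Both relatives of HOMER2 were higher in A clones. HOMER3 was at 38.2 ± 10.7 CPM in A and 17.1 ± 8.72 CPM in N clones (SD, n = 10 each), with a log2 fold change of 1.27 (SE 0.199, adjusted p = 0.00103 by edgeR's quasi-likelihood test), and 7 of 10 A clones lay above all N clones. HOMER1 rose less, from 9.55 ± 3.23 to 16.8 ± 8.51 CPM, by 0.80 on the log2 scale (SE 0.240, adjusted p = 0.0265 by edgeR's quasi-likelihood test). A 23-14 alone was at 40.4 CPM, and 2 of 10 A clones lay above all N clones for HOMER1. With 1 clone left out, its log2 fold change was 0.58 at the least. Of the proteins that Homer scaffolds bind, the postsynaptic scaffold DLG4 (-0.71, adjusted p = 0.0107) and the calcium channel ITPR2 (-0.84, adjusted p = 0.0268) were lower in A clones by the same test. The other 8 tested genes of this list, among them ITPR1, ITPR3, SHANK1, SHANK3 and 3 NFAT genes, were not called. The HOMER1 call was lost without N 23-74 (adjusted p = 0.0502 by edgeR), and the ITPR2 call without N 17-23, A 17-57 or A 22-27 (adjusted p up to 0.0568 by edgeR).

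For KCTD12, none of the 7 tested genes of the GABA-B receptor complex was called, in either direction. With 10.3% of all genes tested called in each direction, this count says little about the partners of KCTD12. GABBR1, the subunit that binds GABA, was at 18.6 ± 3.92 CPM in A and 19.1 ± 4.95 CPM in N clones (SD, n = 10 each). GABBR2, the subunit to which KCTD12 binds, had 0 to 12 counts in A and 0 to 7 counts in N clones and was not tested. It is named, like the receptors of gliomedin and the Nogo receptor below, because of its role and after its values were seen. Of the related genes KCTD8 and KCTD16, neither passed the filter, at 2.46 ± 3.01 against 2.72 ± 5.57 CPM and 0.130 ± 0.301 against 0.0292 ± 0.0635 CPM in A and N clones.

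For PPP4R4, all 7 listed subunits and regulators of protein phosphatase 4 were tested. Of these, 2 were called, both lower in A clones, against 10.3% called in each direction over all genes tested. PPP4R3A was at 46.4 ± 5.07 CPM in A and 62.4 ± 8.50 CPM in N clones (SD, n = 10 each; log2 -0.43, adjusted p = 0.00374 by edgeR's quasi-likelihood test). PPP4R1, another regulatory subunit, was at 42.0 ± 4.70 against 54.5 ± 10.2 CPM (log2 -0.37, adjusted p = 0.0197 by the quasi-likelihood test of edgeR). The catalytic subunit PPP4C was not called.

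For ELL2, 20 genes of transcription elongation control were tested and 18 were not called. ELL, the nearest relative, was at 19.3 ± 3.39 CPM in A and 19.9 ± 4.10 CPM in N clones (SD, n = 10 each), while ELL3 had at most 13 counts in any clone and was not tested. MLLT1, a subunit of the super elongation complex, was lower in A clones (log2 -0.37, adjusted p = 0.0115 by edgeR's quasi-likelihood test). ICE1, which acts with ELL at small nuclear RNA genes, was higher by 0.30 (adjusted p = 0.0252 by the same test), a call that was lost without the animal block (adjusted p = 0.0629).

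In the Nogo receptor pathway, on which CRTAC1 acts in the brain, 3 of 9 genes were tested. LINGO1, a co-receptor, was at 2.26 ± 3.55 CPM in A and 0.333 ± 0.345 CPM in N clones (SD, n = 10 each; log2 2.75, adjusted p = 0.00985 by edgeR's quasi-likelihood test). A 23-14 alone was at 12.2 CPM and the other 9 A clones between 0.288 and 2.11 CPM, and without A 23-14 the log2 fold change was 1.88, still called. NGFR, another co-receptor, was tested and not called (log2 -0.92). RTN4, which encodes the ligand Nogo, was at 1359 ± 442 against 861 ± 232 CPM (log2 0.65, adjusted p = 0.0324 by the same test), and its call was lost when any of 9 single clones was left out (N 17-23, 20-15, 22-9, 23-10 and 23-22 and A 17-57, 20-106, 22-27 and 23-108, adjusted p up to 0.0689 by edgeR). The receptor RTN4R itself had 4 to 32 counts in A and 0 to 20 counts in N clones and was not tested.

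Gliomedin's list had the most calls, with 5 of 12 tested genes higher and 1 lower in A clones, against 10.3% in each direction over all genes tested. It mixes proteases, adhesion molecules and olfactomedin relatives and was drawn up with earlier results known. No joint change of gliomedin's partners is read from this count. BMP1, a protease that cleaves gliomedin, was at 365 ± 83.9 CPM in A and 179 ± 55.3 CPM in N clones (SD, n = 10 each; log2 1.04, SE 0.142, adjusted p = 0.000476 by edgeR's quasi-likelihood test), and 9 of 10 A clones lay above all N clones. FURIN, the other protease that releases it, was at 242 ± 119 against 148 ± 26.0 CPM (log2 0.69, adjusted p = 0.0467 by the same test). Of other genes with an olfactomedin domain, OLFM1 (log2 2.76, adjusted p = 0.0114) and OLFML3 (log2 2.09, adjusted p = 0.0428) were called higher and OLFML2B (log2 -1.35, adjusted p = 0.0232) lower by edgeR. CHL1, a neural adhesion molecule, was higher by 2.84 on the log2 scale (adjusted p = 0.0401 by edgeR), from 0.575 ± 0.974 to 4.34 ± 5.23 CPM. The FURIN, CHL1 and OLFML3 calls were lost without a filter on low counts, and each was lost when any of 13 single clones was left out. They were kept only without N 17-23, N 22-5, A 17-57, A 22-27, A 22-121, A 23-62 or A 23-108 for FURIN, N 22-5, N 22-18, A 22-11, A 22-27, A 22-121, A 23-14 or A 23-62 for CHL1, and N 17-23, N 20-15, N 22-17, A 17-57, A 20-106, A 22-121 or A 23-108 for OLFML3. CHL1's log2 fold change was 3.96 without N 22-5. OLFML3 was higher in A clones of animals 22 and 23 but not of animals 17 and 20, where it was at 76.2 and 38.5 CPM in the A clone against 212 and 302 CPM in the N clone, above every A clone of the study. Without the animal block, the log2 fold change was 0.60 for OLFML3 (adjusted p = 0.583 by edgeR) and 1.83 for OLFM1 (adjusted p = 0.119 by edgeR).

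The axonal receptors of gliomedin, NRCAM and NFASC, did not pass the filter. NRCAM had at most 1 count in any N clone and 0 to 664 counts in A clones, of which 9 exceeded all N clones. NFASC reached 9.04 CPM in 1 A clone, while its median was 0.288 CPM in A and 0.0243 CPM in N clones. Of the relatives of VSTM2L, VSTM4 was tested and not called, and VSTM2A and VSTM2B were not tested. VSTM2A had at most 1 count in any A clone, VSTM2B at most 4, and neither had a count in N clones.

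**Figure D5:**
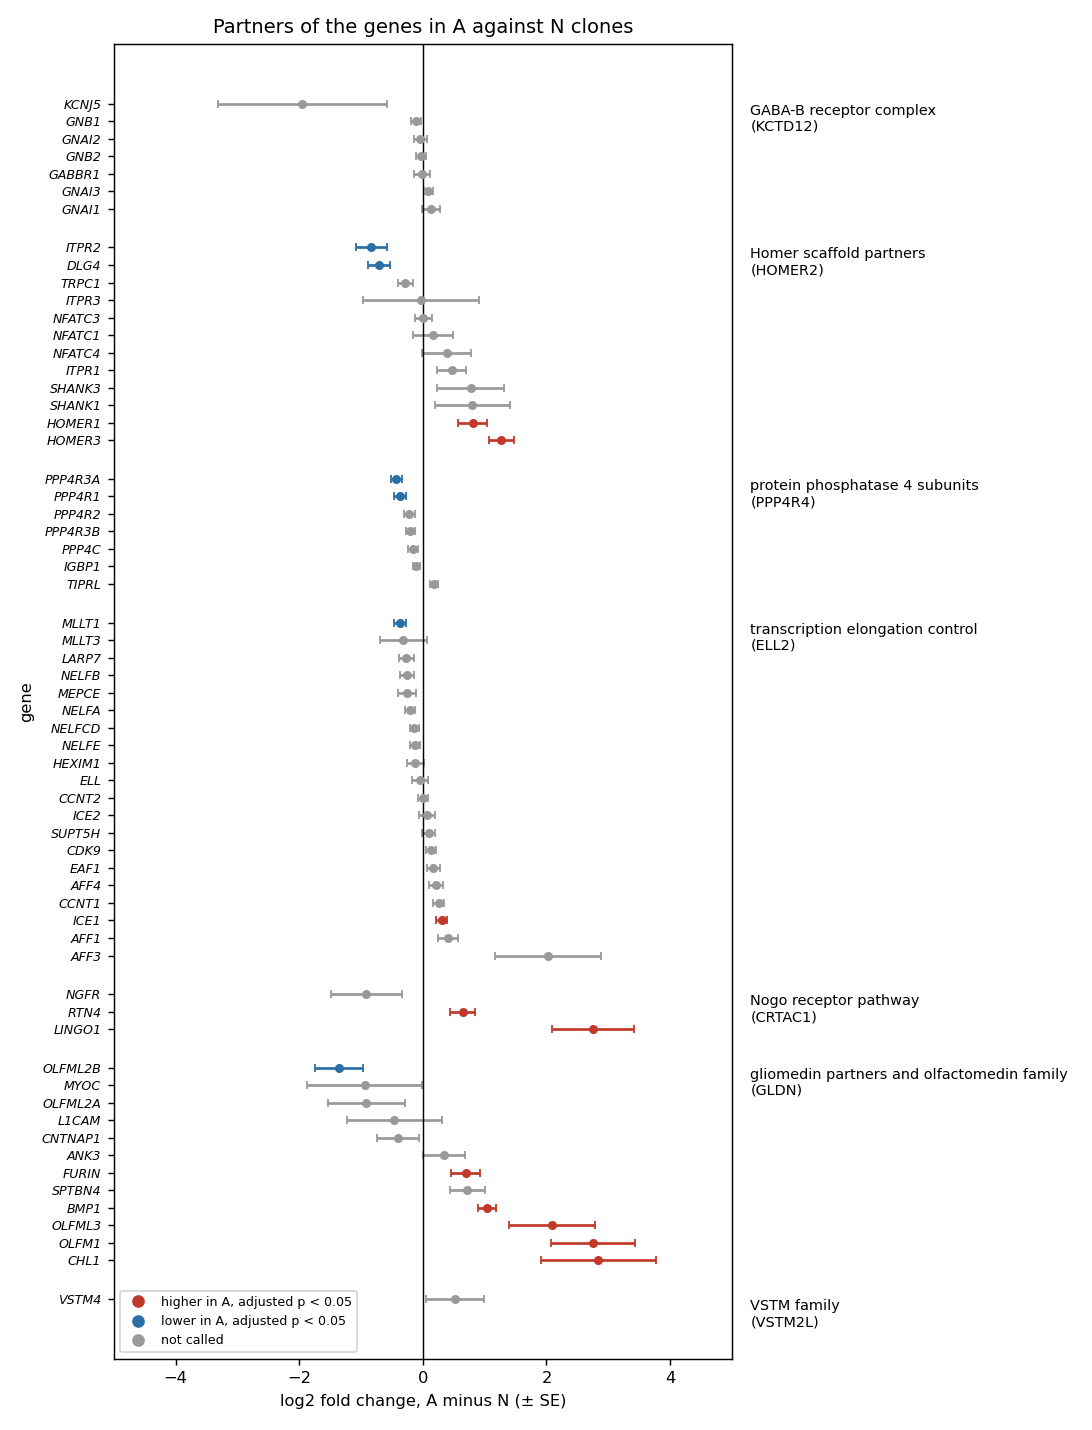
Log2 fold change of A against N clones (x axis, point and SE) for the 62 tested genes of the 7 partner lists (y axis), with the list and the gene it belongs to at the right, red for genes called higher, blue for lower and grey for not called. The lists hold 10 red and 6 blue points, with 5 of the red ones in the gliomedin list and none in the GABA-B list.

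Since several of the 9 genes are known from nerve sheath, neurons or cartilage, markers of these and other cell types were counted as well. Of 62 marker genes in 9 lists, 32 were tested, and 4 were called higher (12.5%) and 1 lower (3.13%) in A clones. Over all genes tested 10.3% were called in each direction, so the number of higher calls is near that share. In the glial list, S100B was higher (28.0 ± 11.3 against 14.1 ± 5.38 CPM, SD, n = 10 each; log2 0.92, adjusted p = 0.00692 by edgeR's quasi-likelihood test), but S100B is also made by fat cells and cartilage. SOX10, which defines Schwann cells, had 0 counts in all 20 clones. The summed level of the glial list was 11.6 to 44.3 CPM in A and 8.60 to 25.7 CPM in N clones, nearly all of it S100B. No neuronal gene (2 of 8 tested) and no chondrocyte gene (1 of 8 tested) was called. COL2A1, the main collagen of cartilage, had at most 3 counts in any clone, and SOX9 was at 18.4 ± 6.42 against 27.8 ± 16.9 CPM. The summed neuronal list was 4.81 to 36.3 CPM in A and 4.12 to 15.3 CPM in N clones, and that of the chondrocyte list 12.1 to 38.6 and 9.27 to 58.05 CPM.

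Among the other cell types, PLIN1, which coats lipid droplets, was at 4.48 ± 1.04 CPM in A and 3.16 ± 0.909 CPM in N clones (SD, n = 10 each; log2 0.53, adjusted p = 0.0456 by edgeR's quasi-likelihood test), and ADIPOQ, the fat cell hormone, had 0 to 42 counts in A and 0 to 3 in N clones. The other 4 tested genes of the mature adipocyte list were not called, with estimates above 0 for LPL (1.93) and FABP4 (0.94) and below 0 for CIDEC (-0.64) and PNPLA2 (-0.20). CD68 (log2 1.06, adjusted p = 0.0157) and MYH11 (log2 3.04, adjusted p = 0.0484) were higher and the mesothelial MSLN (log2 -1.97, adjusted p = 0.0393) was lower in A clones by edgeR. In the haematopoietic list, CD68 was the only gene tested. CSF1R, the receptor for macrophage colony-stimulating factor, had 7 to 35 counts in A and 0 to 10 counts in N clones, and all 10 A clones lay above all N clones, while CD14 had 1 to 135 against 0 to 107 counts and PTPRC, which leukocytes share, had at most 7 counts in any clone. In the mesothelial list, 5 of 6 tested genes were not called, with estimates from -2.38 for KRT18 to 1.16 for KRT19. The PLIN1, MYH11 and MSLN calls were lost without a filter on low counts and when any of 14, 15 and 12 single clones was left out, those of PLIN1 and MSLN also without the animal block. With 1 clone left out they were kept only without N 20-15, N 23-23, N 23-74, A 22-121, A 23-62 or A 23-68 for PLIN1, N 22-17, N 22-18, A 22-121, A 23-14 or A 23-62 for MYH11, and N 17-23, N 20-15, N 22-17, N 22-18, A 17-57, A 20-106, A 22-11 or A 23-62 for MSLN. MYH11's log2 fold change was 2.43 without A 23-68 and 4.45 without the animal block. The summed mesothelial list spanned 7.73 to 1095 CPM in A and 8.82 to 9198 CPM in N clones, and that of smooth muscle and pericyte genes 3968 to 10671 and 1082 to 9891 CPM. For the mature adipocyte list the range was 30.8 to 143 CPM in A and 31.8 to 148 CPM in N clones, for the endothelial list 5.25 to 70.1 and 1.13 to 41.7 CPM, and for the haematopoietic list 2.75 to 11.4 and 0.649 to 10.4 CPM. The part of other cell types in the levels of the 9 genes was not tested.

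The 9 genes lie on 8 chromosomes, HOMER2 and PPP4R4 both on chromosome 21 (RefSeq, assembly ARS-UCD2.0). With 10.3% of all genes tested called in each direction, calls among few neighbours say little about position. Of the 18 nearest genes on either side of them, 6 were tested and 1 was called, R3HCC1L next to CRTAC1. It was at 13.9 ± 2.88 CPM in A and 9.52 ± 1.46 CPM in N clones (SD, n = 10 each; log2 0.54, SE 0.126, adjusted p = 0.00849 by edgeR's quasi-likelihood test), a much smaller difference than that of CRTAC1. The neighbours of HOMER2 (WHAMM, log2 0.01, and the tRNA gene TRNAG-CCC, log2 0.07), IFI27L2 next to PPP4R4 (log2 0.51), BPTF next to C19H17orf58 (log2 -0.21) and CTNNBL1 next to VSTM2L (log2 0.19) were not called. The tRNA gene TRNAG-GCC overlaps HOMER2, and how its reads were counted was not tested.

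The genes whose levels were most like those of each of the 9 across the 20 clones are given with Pearson's r of log2 CPM, which here carries the difference between A and N clones that chose the genes. BEGAIN, a postsynaptic protein, was the nearest to both HOMER2 (0.95) and PPP4R4 (0.88), and INHBB, a subunit of activin and inhibin, to both LOC281376 (0.90) and GLDN (0.94). The second nearest were GLDN for HOMER2 (0.94) and for LOC281376 (0.90), INHBB for PPP4R4 (0.87) and HOMER2 for GLDN (0.94). CRTAC1 was nearest to C19H17orf58 (0.91) and P4HTM (0.89), and KCTD12 to SLC22A23 (0.93) and GLDN (0.91). ELL2 was nearest to SLC8B1 (0.93) and C6H4orf54 (0.93), C19H17orf58 to F2R (0.95) and MDGA1 (0.92), and VSTM2L to PTPRN (0.92) and TNFAIP3 (0.92).

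When the mean of each animal and condition was removed first and Pearson's r was used, over the 16 clones of animals 22 and 23, none of these genes remained among the nearest 2. HOMER2 was then nearest to RIMS2 (0.92) and SALL1 (0.92), and GLDN to PI15 (0.94) and NDEL1 (0.92). RAB2B (0.92) was among the 2 nearest to C19H17orf58. CRTAC1 was nearest to SLC38A1 (0.83) and GMCL1 (0.83), and KCTD12 to YPEL1 (0.87) and LOC112442246 (0.87). The nearest were NEMP2 (0.89) and METTL2A (0.89) for PPP4R4, LOC101905641 (0.89) for ELL2, PPP1R13L (0.88) and DCP1A (0.88) for LOC281376, and GPI (0.89) and CMTM7 (0.89) for VSTM2L. Among the 9 genes themselves, 30 of 36 pairs were positive on this measure, with a median of 0.249 and the highest value for HOMER2 and VSTM2L (0.81), both of which peaked in N 22-18 within their N clones. By Spearman's rank correlation the nearest gene was another one for 8 of the 9 genes across all clones, all but KCTD12, and for 8 of the 9 after the means were removed, all but HOMER2. These correlations are across clones of shared animals, and are descriptions only.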

How the data were processed

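RNA from 20 undifferentiated clones was sequenced by the authors, who trimmed reads with Trimmomatic 0.36, mapped them with STAR 2.5.2b to ARS-UCD1.2 and counted unique reads within exons with Subread 1.5.2. The deposited values are raw counts per gene and clone, and the strand setting is not given in the sources used here, so counts of overlapping or near-identical genes are uncertain. A row without a name (0.113% to 0.333% of counts) was left out.

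From these counts, A and N clones were compared with edgeR 4.0.16 in R 4.3.3 (TMM, default filter on low counts, robust quasi-likelihood fit, Benjamini-Hochberg adjustment over all genes, threshold 0.05), with animal as a block. The A and N clones of 1 animal come from that animal, and their deviations from the means of A and N clones correlated in each animal (0.253, 0.193, 0.241 and 0.440). Animals 22 and 23 were compared in a fit with 1 mean per animal and condition. P-values measure the spread between clones. Log2 CPM used a prior count of 2. The SE of a log2 fold change was derived from the quasi-likelihood test, as the absolute log2 fold change divided by the square root of F. It is approximate, most of all for genes near 0 in N clones. Alternatives were DESeq2 size factors, DESeq2 1.42.0, no filter, no block, all 20 clones in the animal fit, Spearman's correlation, and each clone left out; leaving out N 22-18 with A 23-14 was added after seeing the data. The fits were also run on simulated counts with 1 spread for all genes, 1 size of change and no effect of the animal. These settings are simpler than the data, so that run cannot vouch for the block or for genes near 0.

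The 9 genes and all lists were chosen with earlier results of these data known. Genes named are the 9, called list genes (up to 4 per list with the smallest adjusted p, further ones named after their values were seen), their closest relatives, nearest neighbours, and the 2 most alike by each measure, some of which are not reported here. Promoter and protein sequences were not analysed here.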

Additional observations from a re-analysis of the deposited data

Results flagged for a closer look

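A clone was flagged where its gap to the nearest other clone of its group was a larger share of the group's range, both in log2 CPM, than Dixon's 95% limit allows. Of 51 groups examined, 5 were flagged and 2.55 would be by chance. N 22-18 accounted for 3 of them, as the highest of the 10 N clones for GLDN (0.747 of the range) and HOMER2 (0.513) and the highest of the 4 N clones of animal 22 for LOC281376 (0.905, at 5.01 CPM against at most 0.678 CPM). The others were CRTAC1 in A 23-62, the lowest of the 4 A clones of animal 23 at 10.4 CPM against at least 39.7 CPM (0.902), and KCTD12 in N 22-17, the lowest of the 4 N clones of animal 22 at 0.717 CPM against at least 2.60 CPM (0.837).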

How the results depend on the processing

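In every alternative fit that was run, each of the 9 genes was higher in A clones. This direction was set in advance, since the genes were picked for it in these same clones. The number of them separating all A from all N clones was 6 to 8 over the fits leaving out 1 clone, with 8 reached without N 22-18. Leaving out a clone can hardly lower that number, so neither result is read as a sign of robustness. Without N 22-18, the log2 fold changes of HOMER2 (5.57), LOC281376 (7.35), VSTM2L (6.91) and GLDN (11.01) moved by over 1.5 times, as did those of HOMER2 (5.40) and GLDN (10.99) without N 22-18 and A 23-14 and that of GLDN (9.13) in DESeq2. The others of the 9 moved by less in all alternatives. Of the partner genes, 6 to 13 were higher and 5 to 9 lower when 1 clone was left out, with the 6 from leaving out N 22-9. Of the marker genes, 2 to 5 were higher and 0 to 2 lower, and of the neighbouring genes 1 to 2 were higher and 0 lower. The 2 higher marker genes came without N 22-9, 23-10 or 23-22 or A 22-11, 22-16, 22-27 or 23-108, and the 2 higher neighbours without N 17-23, A 17-57 or A 22-16. Marker genes called lower were 0 without N 22-5, 22-9, 23-10, 23-22, 23-23 or 23-74 or A 22-16, 22-27, 22-121, 23-14, 23-68 or 23-108, and 2 without N 22-18.

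Without a filter on low counts, 4 neighbours were higher and 0 marker genes lower. DESeq2 size factors and DESeq2's Wald test each gave 2 higher neighbours, and the Wald test 7 higher marker genes and 4 of the 9 genes called between the N clones of both animals. Among those 4 were HOMER2 and GLDN, each with 0 to 3 counts in 9 of the 10 N clones. With N 22-18 and A 23-14 left out, 2 marker genes were lower. Without the animal block, which the pairing by animal calls for, 0 marker genes were lower, and the calls of ICE1, OLFM1, OLFML3, PLIN1 and MSLN were lost. None of the 9 genes was called between the A clones of both animals, or in the interaction, in any alternative (0 to 0 with 1 clone left out, also between N clones). No call changed its sign. Genes under about 3 counts per library, among them GLDN, HOMER2 and VSTM2L in most N clones, are limited by depth, and their fold changes depend on few reads.

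The analysis of promoter and protein sequences was not run, as the sequence tables it needs were not used here.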

Other observations

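Of the 12 neighbouring genes that did not pass the filter on low counts, several had reads mostly in A clones, at very low levels and with no test. The pseudogene LOC112444149 next to LOC281376 had 0 counts in every N clone and up to 5 in A clones, and 8 of 10 A clones had at least 1. The pseudogene LOC782491 next to GLDN had 0 counts in N clones and up to 25 in A clones, with 6 A clones above 0. The long non-coding RNA LOC107132664 next to ELL2 was at 0.216 ± 0.189 CPM in A and 0.0176 ± 0.0322 CPM in N clones (SD, n = 10 each), and 7 of 10 A clones lay above all N clones. These neighbours were named by their position. SERPINB8, another serpin gene of chromosome 24 named here, like those below, after its values were seen, was at 68.4 ± 31.3 CPM in A and 37.6 ± 11.5 CPM in N clones (SD, n = 10 each), with 5 of 10 A clones above all N clones. Its log2 fold change was 0.88 (adjusted p = 0.0163 by edgeR's quasi-likelihood test). That of SERPINB10, also on chromosome 24, was 4.42 (adjusted p = 0.0275 by the same test). SERPINB10 was uneven, at 10.2 ± 19.3 CPM in A and 0.811 ± 1.73 CPM in N clones, with 4 of 10 A clones above all N clones. A 23-14 alone was at 64.4 CPM, A 23-108 had 0 counts, and N 20-15 was at 5.46 CPM. SERPINB5 and SERPINB12 of chromosome 24 were not tested, with 5 and 8 of 10 A clones above all N clones at low levels. SERPINB7 and SERPINB11 of that chromosome had no counts. SERPINB1, SERPINB6 and SERPINB9 on chromosome 23 were not called.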
